A study of Mus musculus with 10 samples.

Results

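Described here are 10 chemokine genes of the mouse liver, Cxcl1, Cxcl9, Cxcl10, Cxcl12, Cxcl13, Cxcl16, Ccl2, Ccl5, Ccl6 and Ccl9. They were chosen by symbol from the platform annotation, and all 10 were present, with 18 of the 25995 probe sets of the arrays and 10 of the 12366 genes that could be named. Total RNA from whole livers of 28-day-old mice of mixed strain, fasted for 5 hours, had been hybridised to 1 expression array for each animal. The 5 control livers came from mice whose genotype the labels do not spell out. The 5 mutant livers came from DicerloxP/loxP;Afp-Cre+ mice, in which Dicer1, the enzyme that cuts mature microRNAs from their precursors, is deleted by a Cre recombinase under control of Afp, a gene of the fetal liver. The comparison asks which transcripts differ in liver that has lost this enzyme. The deletion is driven from the hepatoblast lineage, whereas chemokines in liver come from hepatocytes and from other cells, and whole tissue does not separate these sources.

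Chemokines are small secreted proteins that bind G protein-coupled receptors and direct the movement of leukocytes. They are named from the spacing of their first cysteines, CXC or CC, and many are held on heparan sulfate at the cell surface, where they form the gradient that cells follow. In liver, some are made at rest and hold resident cells in place, and others are induced by interferons or by NF-kB signalling and recruit neutrophils, monocytes or T cells.

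The targeted gene was lower in every mutant liver. Dicer1 stood between 7.99 and 8.10 log2 units on control arrays and between 5.42 and 5.94 on mutant arrays on its first probe set, and between 7.91 and 8.18 and between 6.97 and 7.20 on the other. Whether these probe sets fall in the deleted exons was not determined here. Of the hepatocyte markers, Alb stood at 16.20 in controls and 16.24 in mutants. Of 8 hepatocyte markers, 0 were called in either direction by limma, with 1 lower at an unadjusted p under 0.05. On component 1 of a principal component analysis over all probe sets, which held 46.8% of the variance, controls lay between -45.8 and -25.6, mutant replicates 1 to 4 between 33.4 and 62.2, and mutant replicate 5 at -15.4, nearer to the controls than to the other mutants. Nothing in the labels gives the sex, litter or processing batch of the animals.

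Of the 10 chemokines, 2 were higher in mutant liver, 0 were lower and 8 did not pass the test. The 2 were Cxcl10, an interferon-inducible attractant of activated T cells, and Cxcl12, a homeostatic chemokine that retains CXCR4-bearing cells. The call was limma's moderated test over all 12366 genes at an adjusted p under 0.05, and by the same rule 8.62% of all genes were higher and 11.5% lower, so with 10 members the count by itself says little about them as a group. At an unadjusted p under 0.05 by limma, 3 members were higher and 0 lower, beside 14.9% and 19.9% of all genes. The median difference of the members, mutant minus control, was 0.22 log2 units, beside -0.012 for all genes. Differences were above 0 for 8 members and below 0 for 2, and the share of all genes above 0 was not counted. Of the 8, Ccl2 (0.036), Ccl9 (0.038) and Cxcl9 (0.070) were close to 0. Over all genes the 25th and 75th percentiles of the differences were -0.23 and 0.16.

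**Figure D1:**
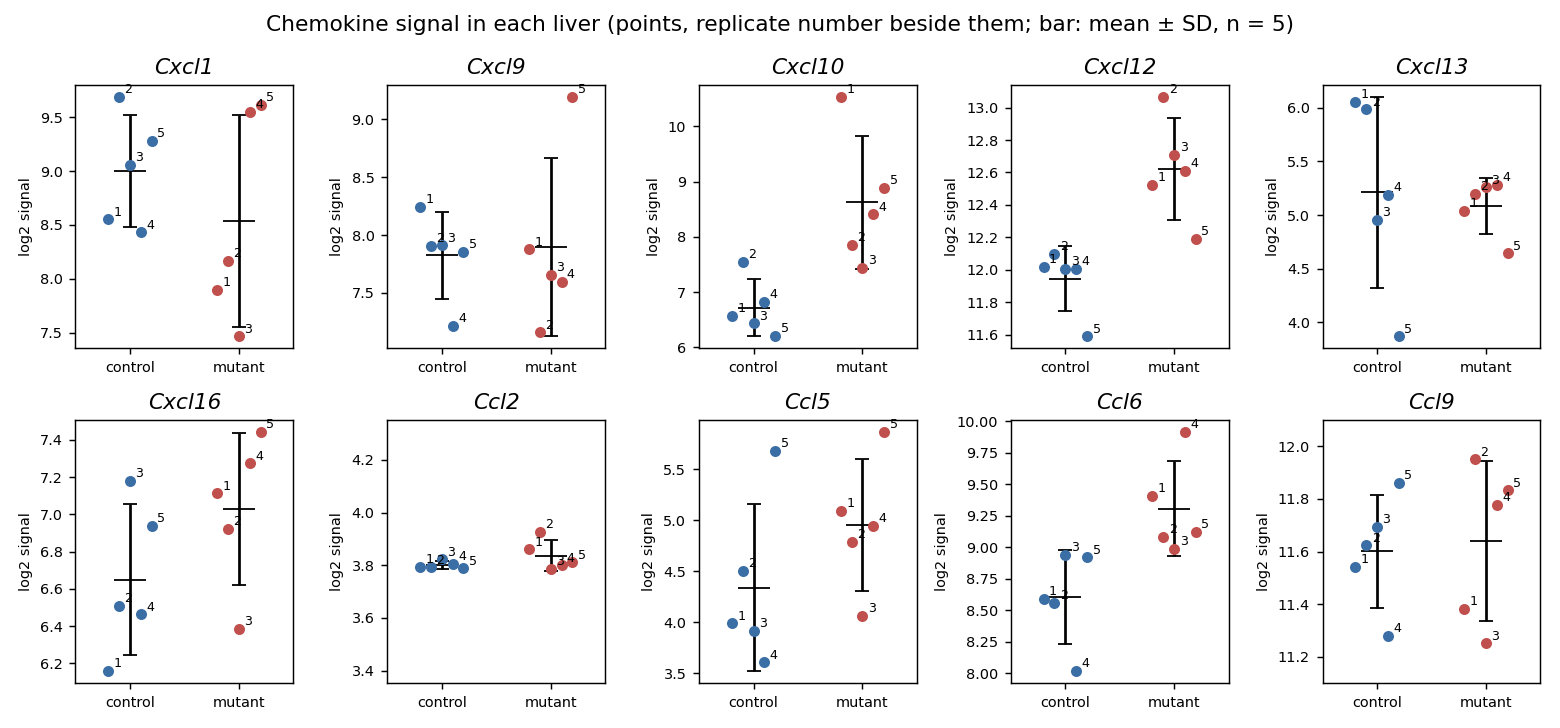
Log2 signal (vertical axes, a separate scale for each gene) of the 10 chemokines in 5 control (blue) and 5 mutant (red) livers. Points are arrays with their replicate number, and bars are the mean ± SD; the groups are apart for Cxcl12 and Ccl6, while for Cxcl10 the highest control, 7.55, lies just above the lowest mutant, 7.44.

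The promoters of the 2 chemokines that were called are shown with that of Cxcl9, because Cxcl9 and Cxcl10 lie close together on chromosome 5 with 1 gene, Art3, starting between them, share the receptor CXCR3 and did not have like values in mutant liver. Each sequence is the 250 bases before the start of the gene, from RefSeq on GRCm38.p6, on the strand of the gene. Capitals mark matches, on either strand, to the kappaB motif bound by NF-kB or to an interferon response motif, 2 copies of GAAA with any 2 bases between them.
Cxcl10, chr5:92348890-92349139, minus strand: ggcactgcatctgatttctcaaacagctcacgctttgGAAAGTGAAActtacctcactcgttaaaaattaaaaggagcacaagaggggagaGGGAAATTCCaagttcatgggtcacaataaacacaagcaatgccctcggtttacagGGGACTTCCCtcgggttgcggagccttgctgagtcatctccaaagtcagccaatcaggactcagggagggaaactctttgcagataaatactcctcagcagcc
Cxcl9, chr5:92328080-92328329, minus strand: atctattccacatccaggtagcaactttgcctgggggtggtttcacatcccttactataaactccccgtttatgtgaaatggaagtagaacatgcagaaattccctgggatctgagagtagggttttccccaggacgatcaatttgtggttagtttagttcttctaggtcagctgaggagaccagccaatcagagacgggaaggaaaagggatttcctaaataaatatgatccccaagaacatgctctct
Cxcl12, chr6:117168285-117168534, plus strand: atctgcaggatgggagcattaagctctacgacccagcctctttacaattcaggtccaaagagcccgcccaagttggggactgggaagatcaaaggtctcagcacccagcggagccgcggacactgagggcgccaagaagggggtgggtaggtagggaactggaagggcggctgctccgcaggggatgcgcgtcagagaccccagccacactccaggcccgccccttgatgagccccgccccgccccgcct

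The Cxcl10 window holds 2 matches to the kappaB motif and 1 to the interferon response motif, and these did not overlap. The kappaB matches start 159 and 103 bases before the gene and the interferon response match 213 bases before it. In the windows of Cxcl9 and Cxcl12 these letters were not found. Among the other members with a window, which are not printed, Cxcl1 holds 2 overlapping kappaB matches and Ccl9 holds 1, and neither gene was called. Among 32851 promoter windows of this length, 3.90% hold a kappaB match and 2.98% an interferon response match. The Cxcl12 window is richer in G and C, at 64.4% with 14 CpG pairs, than those of Cxcl10 (48.0%, 5 pairs) and Cxcl9 (44.4%, 3 pairs). TATAAA, on either strand, is in 12.4% of all windows, in that of Cxcl9 once and in those of Cxcl10 and Cxcl12 not at all. These matches describe the letters of the windows, and binding was not measured.

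Among the ligands of CXCR3, the receptor of activated T cells and NK cells, Cxcl10 was higher in mutants. Cxcl10 stood at 6.57, 7.55, 6.44, 6.83 and 6.21 log2 units in control replicates 1 to 5 and at 10.54, 7.85, 7.44, 8.41 and 8.89 in mutant replicates 1 to 5. The groups overlapped by 1 pair of arrays, control replicate 2 being above mutant replicate 3, and mutant replicate 1 was the highest array. Controls averaged 6.72 ± 0.52 (SD, n = 5) and mutants 8.62 ± 1.20 (SD, n = 5). Mutants were thus 1.91 higher (SE 0.54, adjusted p = 0.0361), or 3.75-fold if the deposited values are logarithms to base 2, as their range reads. Without mutant replicate 1 the difference was 1.43 (adjusted p = 0.0364).

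The Cxcl10 call did rest on the number of arrays. The adjusted p passed 0.05 when control replicate 1 (0.0693), 3 (0.0768), 4 (0.0673) or 5 (0.0755) was left out, and likewise for mutant replicate 4 (0.0685), while the difference stayed between 1.43 and 2.21 over all 10 fits that left out 1 array. Adjusted over all probe sets, the Cxcl10 call (adjusted p = 0.0484) was kept in 2 of these fits, without mutant replicate 1 or 3, and the adjusted p was up to 0.101 in the others.

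Cxcl9, an interferon-gamma-induced T cell attractant and close relative of Cxcl10, showed no such difference. It stood at 8.24, 7.91, 7.91, 7.21 and 7.86 in control replicates 1 to 5 and at 7.88, 7.16, 7.66, 7.59 and 9.19 in mutant replicates 1 to 5. Mutant replicate 5 was the highest array, and the other mutants lay within or just below the range of the controls. The difference was 0.070 (SE 0.35, adjusted p = 0.939), with a 95% interval from -0.72 to 0.86, and it was -0.25 without mutant replicate 5. The other Cxcl9 probe set was dim, between 3.22 and 3.28 on 9 arrays and at 3.74 on mutant replicate 5.

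The 2 CXCR3 ligands were also set side by side within the same livers. Relative to the control mean, the log2 signal of Cxcl10 minus that of Cxcl9 ran from -0.56 to 0.75 in controls and was 3.77, 1.80, 0.89, 1.92 and 0.81 in mutant replicates 1 to 5. All 5 mutants lay above all 5 controls on this measure, though mutant replicates 3 and 5 did so by little. The measure holds the Cxcl10 values of the call above, so it is not a separate result. In mutant replicate 5 both genes were above their control means, Cxcl10 by 2.17 and Cxcl9 by 1.37. In mutant replicates 2, 3 and 4 Cxcl9 was below its control mean. The difference between the 2 genes was not tested. Cxcl11, the third ligand of this receptor in the same gene neighbourhood, was lower by 1.48 on average in mutants (SE 0.48, adjusted p = 0.0565), from 5.51 to 4.03, and did not pass. It passed without control replicate 1 or mutant replicate 5, with an adjusted p down to 0.00549.

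Genes of the interferon-gamma response were described beside Cxcl10. Of 17 measured, 6 were higher, 0 lower and 11 did not pass, with a median difference of 0.56. They included the immunoproteasome subunit Psmb8 at 1.10 (SE 0.22, adjusted p = 0.0129), its partner Psmb9 at 1.06 (SE 0.25, adjusted p = 0.0204), the transcription factor Irf1 at 0.65 (SE 0.15, adjusted p = 0.0176) and the guanylate-binding protein Gbp6 at 0.75 (SE 0.18, adjusted p = 0.0220). Leaving out control replicate 4 or mutant replicate 1 left 4 higher, leaving out control replicate 3 or mutant replicate 4 left 3, and leaving out mutant replicate 5 gave 7. With the replicate number as a block, 2 were higher. There Psmb8 kept its call (adjusted p = 0.0337), and Irf1 (0.0605), Gbp6 (0.0521) and Psmb9 (0.0697) did not pass. Relative to the control mean, the mean over this list lay between -0.19 and 0.16 on control arrays and between 0.22 and 0.67 on mutant arrays, with mutant replicates 2 and 3 lowest among the mutants, as they were for Cxcl10. The list was highest in mutant replicate 4, with 0.65 in mutant replicate 1, whereas Cxcl10 was highest in mutant replicate 1. Mutant replicates 2 and 3 were also lowest among the mutants for the NF-kB and cytokine list, at 0.17 and -0.11. Their place is thus not particular to the interferon list. The part of this response in the Cxcl10 values was not tested.

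Of 15 genes of NF-kB signalling and inducing cytokines, 1 was higher and 0 were lower by limma, with 2 higher and 0 lower at an unadjusted p under 0.05. The 1 was Icam1, an adhesion molecule, at 0.92 (SE 0.27, adjusted p = 0.0430), a call that ended when any of 7 arrays was left out (controls 1, 2, 3 and 5 and mutants 1, 2 and 4, with an adjusted p up to 0.0940). The inhibitor Nfkbia, a rapid target of NF-kB, differed by 0.061 (SE 0.22, adjusted p = 0.902), and Vcam1, another adhesion molecule, by 0.64 (SE 0.25, adjusted p = 0.102). With mutant replicate 5 left out, 2 were higher, Icam1 and Vcam1. Relb, at 0.84 (SE 0.44, adjusted p = 0.211), and Tnfaip3, at 0.68 (SE 0.45, adjusted p = 0.316), did not pass. Both were highest in mutant replicate 4, at 5.59 and 7.34, and Relb had a mean of 3.34, below 3.60, the 25th percentile of all values. The median difference of this list was 0.18, and its differences ran from -0.14 to 0.92.

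**Figure D2:**
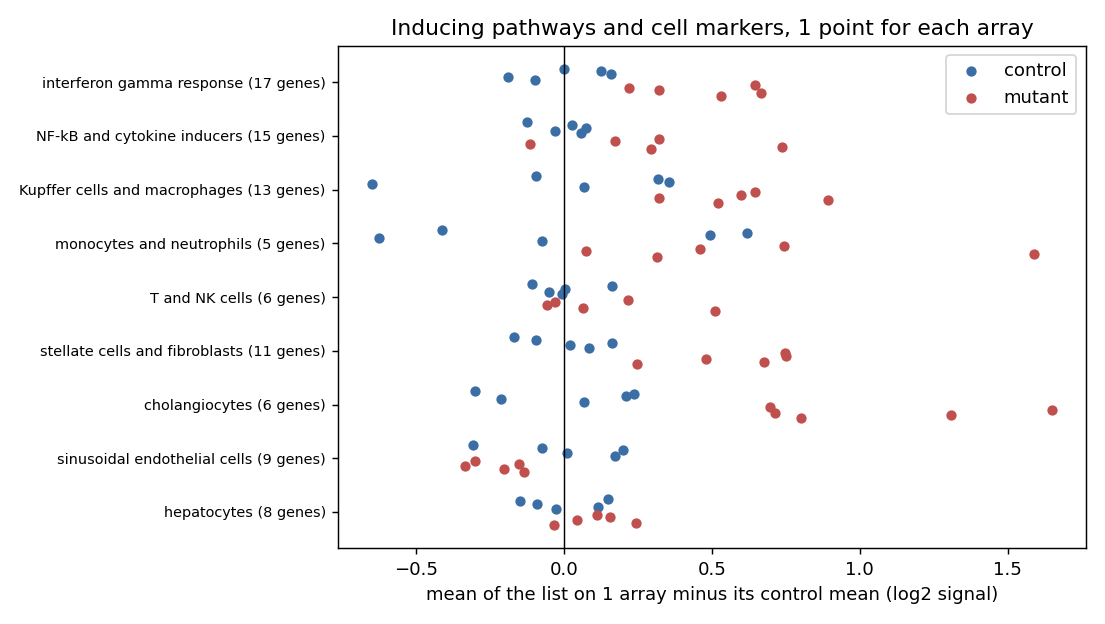
Mean of each gene list on each array minus its control mean (horizontal axis, log2 signal) for 5 control (blue) and 5 mutant (red) livers, 1 point for each array. The mutants lie above the controls for the interferon list, from 0.22, for the stellate list, from 0.25, and for the cholangiocyte list, from 0.69. Prom1 weighs most in the cholangiocyte mean. The NF-kB, macrophage, monocyte and neutrophil, T and NK cell, endothelial and hepatocyte lists overlap. For the macrophage list the highest control is at 0.36 and the lowest mutant at 0.32.

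Cxcl12, the homeostatic chemokine made in liver by stromal and sinusoidal cells, was higher in every mutant than in every control. It stood at 12.02, 12.10, 12.01, 12.01 and 11.59 in control replicates 1 to 5 and at 12.52, 13.07, 12.71, 12.61 and 12.19 in mutant replicates 1 to 5. Mutant replicate 5 was the lowest mutant, and control replicate 5 lay below the other controls. Controls averaged 11.94 ± 0.20 (SD, n = 5) and mutants 12.62 ± 0.32 (SD, n = 5), which is 0.68 higher (SE 0.16, adjusted p = 0.0193). Groups did not overlap in this direction for 2 members, Cxcl12 and Ccl6, beside 6.17% of all genes.

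The Cxcl12 call was kept in all 10 fits without 1 array, with differences from 0.57 to 0.78 and an adjusted p up to 0.0446 over all genes. Adjusted over all probe sets, the same probe set lost its call in 6 of these fits, without controls 3, 4 or 5 or mutants 1, 3 or 4, with an adjusted p up to 0.0590. Its other probe set gave 11.23, 11.15, 11.35, 11.12 and 10.98 in control replicates 1 to 5 and 12.16, 12.46, 12.15, 12.13 and 11.77 in mutant replicates 1 to 5, again with no overlap. There the difference was 0.97 (SE 0.12), with an adjusted p of 0.00528 over all 25958 probe sets other than controls, of which 5.80% were higher and 7.39% lower, and this call was kept in all 10 fits without 1 array, with an adjusted p up to 0.0178.

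Receptors of Cxcl12 did not pass the test. Cxcr4, the signalling receptor, stood at 3.18, 3.17, 3.21, 3.29 and 3.17 in control replicates 1 to 5 and at 4.66, 5.21, 3.18, 4.16 and 3.23 in mutant replicates 1 to 5. Mutant replicates 1, 2 and 4 were above all controls, whereas mutant replicates 3 and 5 were at their level, which is below 3.60, the 25th percentile of all values on the arrays. The difference was 0.89 (SE 0.37, adjusted p = 0.119), and it passed without mutant replicate 5 (adjusted p = 0.0442). Ackr3, an atypical receptor that removes CXCL12 from the tissue, differed by 0.26 (SE 0.19, adjusted p = 0.378).

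Markers of the cell types around the sinusoid are given beside Cxcl12. Of 11 stellate cell and fibroblast markers, 6 were higher and 0 lower, with a median of 0.57, among them Pdgfrb, the growth factor receptor of stellate cells, at 0.57 (SE 0.083, adjusted p = 0.00645) and the matrix proteoglycan Lum at 1.13 (SE 0.25, adjusted p = 0.0169). With mutant replicate 4 left out, 3 were higher, and with mutant replicate 5 left out, 8. The mean over this list lay between -0.17 and 0.16 on control arrays and between 0.25 and 0.75 on mutant arrays, lowest in mutant replicate 5 and highest in mutant replicate 2, as for Cxcl12. Mutant replicate 1 was close to the highest, at 0.746 against 0.751. The same 2 mutants, 5 and 2, were at the ends on component 1 over all probe sets, at -15.4 and 62.2. This order is thus not particular to these genes. Of 9 sinusoidal endothelial markers, 0 were higher and 1 was lower, the hyaluronan receptor Lyve1 at -0.95 (SE 0.21, adjusted p = 0.0175), with a median of -0.13 and with 0 higher at an unadjusted p under 0.05 by limma. With mutant replicate 5 left out, 2 were lower, Lyve1 and Kdr. Of 6 cholangiocyte markers, 1 was higher and 0 lower, with a median of 0.57. It was Prom1, a membrane protein also found on progenitor cells, at 4.03 (SE 0.81, adjusted p = 0.0128). The mean over this list lay between -0.30 and 0.24 on control arrays and between 0.69 and 1.65 on mutant arrays. Prom1 weighs most in that mean. Differences over the list ran from -0.043 to 4.03, and Prom1 was the 1 gene whose groups did not overlap. Of the 6, 2 had a mean below 3.60. With mutant replicate 1 left out, the keratin Krt7 was also called, giving 2 higher. The part of these cells in the Cxcl12 values was not tested, and in whole liver more cells of a type and more RNA for each cell cannot be told apart.

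Cxcl16, a membrane-anchored chemokine that binds CXCR6 on T and NK cells and is released by ADAM10, gave unlike calls on its 2 probe sets. On the brighter it stood at 6.16, 6.51, 7.18, 6.46 and 6.94 in control replicates 1 to 5 and at 7.11, 6.92, 6.38, 7.27 and 7.44 in mutant replicates 1 to 5. The groups overlapped widely, with mutant replicate 3 below 4 of the controls, and the difference was 0.38 (SE 0.24, adjusted p = 0.301), with a 95% interval from -0.16 to 0.91. On the dimmer probe set controls ran from 3.39 to 3.73 and mutants from 3.74 to 4.25 with no overlap, a difference of 0.43 (SE 0.11) and an adjusted p of 0.0326 over all probe sets. That call ended when any of controls 1 to 4 or mutant 2 or 4 was left out (adjusted p up to 0.0764), and its values lie near the 25th percentile of all values, 3.60, where the treatment of background by the authors weighs most.

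The sheddases that release CXCL16 were higher. Adam10, a membrane protease and a known miR-122 target, stood between 10.54 and 10.85 in controls and between 11.24 and 12.14 in mutants, and rose by 1.06 (SE 0.15, adjusted p = 0.00617). Adam17, which also cleaves membrane-bound cytokines, rose by 0.83 (SE 0.16, adjusted p = 0.0115), and both calls were kept in all 10 fits without 1 array. Of the 16 measured genes for shedding, cell-surface heparan sulfate and receptor signalling, 4 were higher and 0 lower, with a median of 0.20. The other 2 were the heparan sulfate proteoglycan Sdc1 at 0.60 (SE 0.15, adjusted p = 0.0281) and the G protein subunit Gnai2 at 0.35 (SE 0.099, adjusted p = 0.0370). With control 1 or 4 or mutant 2 or 3 left out, 2 were higher, and with mutant 5 left out 5 were higher and 1, the proteoglycan Sdc2, was lower.

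Cxcl1, a neutrophil attractant that acts through CXCR2 and is made by hepatocytes and macrophages after injury, split the mutants. It stood at 8.55, 9.69, 9.06, 8.43 and 9.28 in control replicates 1 to 5 and at 7.90, 8.17, 7.47, 9.55 and 9.61 in mutant replicates 1 to 5. Mutant replicates 1, 2 and 3 lay below all controls, and mutant replicates 4 and 5 lay near the highest control. Controls averaged 9.003 ± 0.52 (SD, n = 5) and mutants 8.54 ± 0.98 (SD, n = 5), and the difference was -0.46 (SE 0.46, adjusted p = 0.530), with a 95% interval from -1.49 to 0.56. It ran from -0.20 without mutant replicate 3 to -0.73 without mutant replicate 5. A further probe set had the same order of the mutants, with 5.50, 6.39, 5.50, 7.86 and 8.26 in replicates 1 to 5 against 7.07 to 8.09 in controls. The remaining Cxcl1 probe set lay below 3.60 on all arrays.

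Cxcl13, the CXCR5 ligand that attracts B cells, was low and did not differ beyond its spread. It stood at 6.05, 5.99, 4.96, 5.19 and 3.87 in control replicates 1 to 5 and at 5.04, 5.20, 5.26, 5.28 and 4.64 in mutant replicates 1 to 5. All 5 mutants lay within the range of the controls, and replicate 5 was lowest in each group. The difference was -0.13 (SE 0.38, adjusted p = 0.877), and the other probe set gave -0.28 (SE 0.41). Of 5 measured markers of B and plasma cells, 0 passed in either direction by limma, and 1 was lower at an unadjusted p under 0.05.

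**Figure D3:**
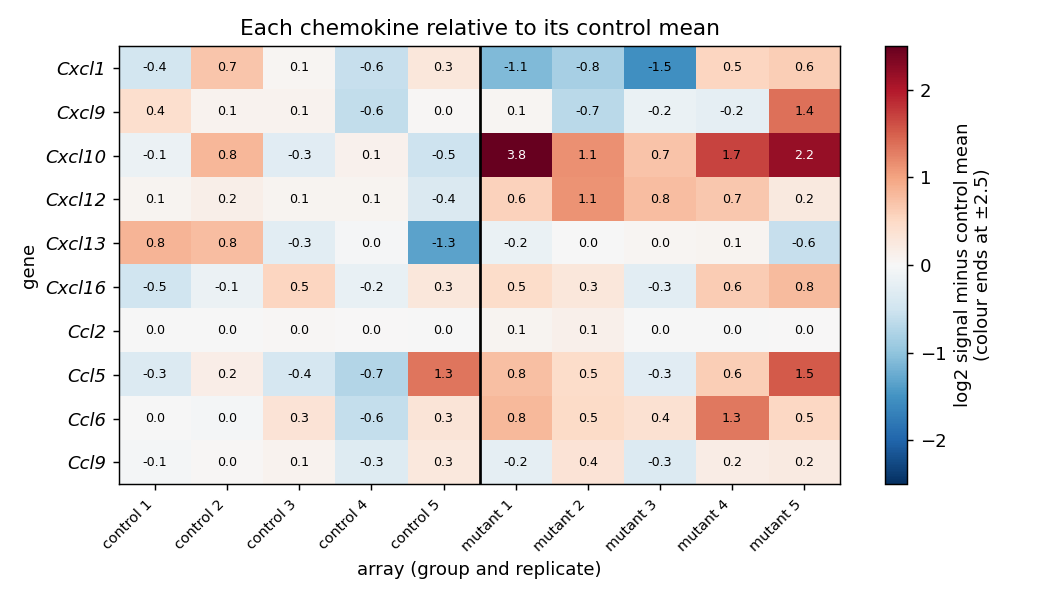
Log2 signal of each chemokine on each array minus the mean of the 5 controls of that gene (colour and printed value; colour ends at ±2.5). Cxcl10 and Cxcl12 are above their control mean on all 5 mutant arrays, and mutant replicate 5 has the highest Cxcl9, Cxcl1, Cxcl16 and Ccl5 of the mutants and the lowest Cxcl12.

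Of the CC chemokines, Ccl6 came closest to a call. Ccl6 and Ccl9 are neighbouring rodent genes of chromosome 11, both expressed by macrophages and both ligands of CCR1. Ccl6 stood at 8.59, 8.56, 8.94, 8.02 and 8.92 in control replicates 1 to 5 and at 9.41, 9.08, 8.99, 9.92 and 9.12 in mutant replicates 1 to 5. Every mutant was above every control, but the gap between mutant replicate 3 and control replicate 3 was small. Controls averaged 8.61 ± 0.37 (SD, n = 5) and mutants 9.30 ± 0.38 (SD, n = 5). The difference was 0.70 (SE 0.22), and the adjusted p of 0.0521 lay just above the threshold. It passed with quantile normalization or with the array median or 75th percentile subtracted, with dim genes left out, with another model of the spread, with weighted arrays and without mutant replicate 5, with an adjusted p from 0.0327 to 0.0497 in these settings. Ccl6 did not pass with the mean of its probe sets (adjusted p = 0.0837), the probe set of largest variance (0.139) or the replicate number as a block (0.142). Nor did it pass with any array other than mutant replicate 5 left out (up to 0.101). The other probe set overlapped between groups and gave 0.64 (SE 0.27, adjusted p = 0.163 over all probe sets).

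Ccl9 was steady. It stood at 11.54, 11.62, 11.69, 11.28 and 11.86 in control replicates 1 to 5 and at 11.38, 11.95, 11.25, 11.78 and 11.83 in mutant replicates 1 to 5, so the groups covered nearly the same range. The difference was 0.038 (SE 0.16, adjusted p = 0.917), with a 95% interval from -0.31 to 0.39, and 0.10 (SE 0.16) on the other probe set. Relative to the control mean, Ccl6 minus Ccl9 ran from -0.27 to 0.24 in controls and from 0.12 to 1.13 in mutants, with 4 of the 5 mutants above all controls. This difference between the neighbours was not tested.

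Macrophage markers were higher beside Ccl6. Of 13 measured, 9 were higher and 0 lower, with a median of 0.59. The lysozyme Lyz2 differed by 1.05 (SE 0.23, adjusted p = 0.0157) and the Kupffer cell lectin Clec4f by 0.59 (SE 0.13, adjusted p = 0.0155). Leaving out control 1 or mutant 1, 2 or 4 left 3 higher, leaving out control 5 left 4, control 4 left 5, and control 3 or mutant 5 left 6. With the replicate number as a block, 2 were higher, Clec4f (adjusted p = 0.0428) and Lyz2 (0.0364). The mean over the markers lay between -0.65 and 0.36 on control arrays and between 0.32 and 0.89 on mutant arrays. It was lowest in control replicate 4 and highest in mutant replicate 4, the arrays with the lowest and the highest Ccl6. The same arrays were at the ends of the monocyte and neutrophil list (-0.63 and 1.59) and of the interferon-gamma list (-0.19 and 0.67). This order is thus not particular to macrophage markers, and the part of macrophages in the Ccl6 values was not tested.

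Ccl5, a T cell and monocyte attractant made by T and NK cells, was dim and variable. It stood at 3.99, 4.50, 3.92, 3.61 and 5.68 in control replicates 1 to 5 and at 5.09, 4.79, 4.06, 4.95 and 5.87 in mutant replicates 1 to 5. Replicate 5 was highest in each group, and 3 of the other mutants lay above the other controls. The difference was 0.61 (SE 0.43, adjusted p = 0.353), with a 95% interval from -0.35 to 1.58. It was 0.38 without mutant replicate 5 and 0.95 without control replicate 5 (adjusted p = 0.0899). Of 6 measured markers of T and NK cells, 0 were called, with 0 at an unadjusted p under 0.05 by limma, and 5 of the 6 had a mean below 3.60. Their mean lay between -0.11 and 0.16 on control arrays and was 0.51 in mutant replicate 5, the array with the highest Ccl5 and Cxcl9, against -0.058 to 0.22 in the other mutants. On mutant replicate 5 the granzymes Gzma and Gzmb stood at 4.65 and 4.41, against control means of 3.06 and 2.95. The other markers of the list lay near their control means there, such as Nkg7 at 1.96 and Prf1 at 2.46.

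Ccl2, the CCR2 ligand that recruits monocytes, gave nearly constant values on all 10 arrays. It stood at 3.79, 3.79, 3.82, 3.81 and 3.79 in control replicates 1 to 5 and at 3.86, 3.93, 3.79, 3.80 and 3.81 in mutant replicates 1 to 5. These values lie just above the 25th percentile of all values and vary by less than those of any other member, with an SD of 0.014 among controls, so the array does not show that Ccl2 is expressed in these livers. The difference was 0.036 (SE 0.040, adjusted p = 0.582). Its receptor Ccr2 differed by 0.35 (SE 0.28, adjusted p = 0.435). Of 5 measured markers of monocytes and neutrophils, 0 were called in either direction, with 1 higher at an unadjusted p under 0.05 by limma, the neutrophil calgranulin S100a9 at 1.24 (SE 0.53, adjusted p = 0.131).

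**Figure D4:**
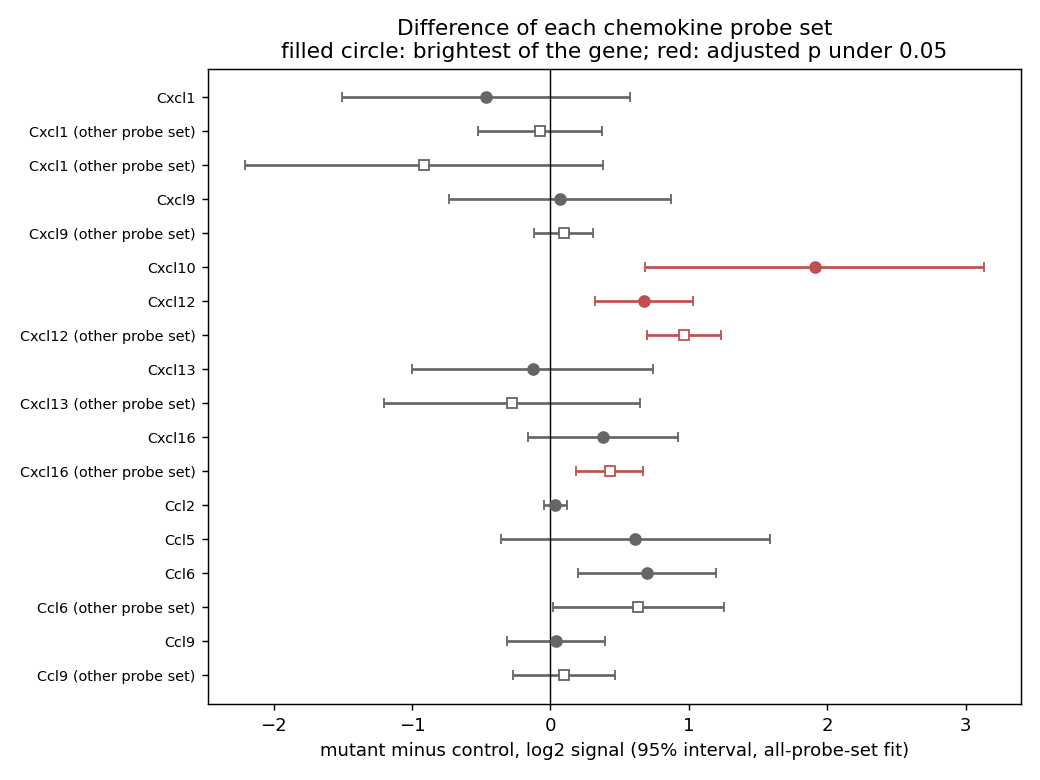
Difference of each of the 18 chemokine probe sets, mutant minus control in log2 signal (horizontal axis), with the 95% interval of the fit over all probe sets. Filled circles are the brightest probe set of a gene, open squares the others, and red marks an adjusted p under 0.05; Cxcl10, both Cxcl12 probe sets and the dimmer Cxcl16 probe set are red.

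The rest of the chemokine system was described from lists of ligands and receptors. Of 28 other ligands, 9 were measured with a named probe set, and the rest were not analysed here. Of the 9, 0 were higher and 2 lower, with a median of -0.046 and 3 lower at an unadjusted p under 0.05 by limma. Ccl27a, an epithelial chemokine of skin, stood between 6.99 and 7.61 in controls and between 5.33 and 6.85 in mutants, and fell by 1.38 (SE 0.26, adjusted p = 0.0101), a call that passed in all 10 fits without 1 array. This gene has near-identical copies in the mouse genome, and its identity on the array is uncertain. Ccl25, the CCR9 ligand that guides T cells to the gut, fell by 0.47 (SE 0.13, adjusted p = 0.0307), a call that ended with control 2 or 3 or mutant 2 or 4 left out (adjusted p up to 0.0722). The number lower was 3 with control 1 or mutant 5 left out and 1 with any of the arrays left out that ended the Ccl25 call.

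Of 23 receptors, 10 were measured, and 0 were called in either direction by limma, with 1, Cxcr4, higher at an unadjusted p under 0.05. The median difference of the receptors was 0.0041. Some receptors of inflammatory ligands were dim, with Cxcr3 between 2.47 and 2.52 and the means of Ccr1 at 2.28 in both groups, below the 25th percentile of all values.

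**Figure D5:**
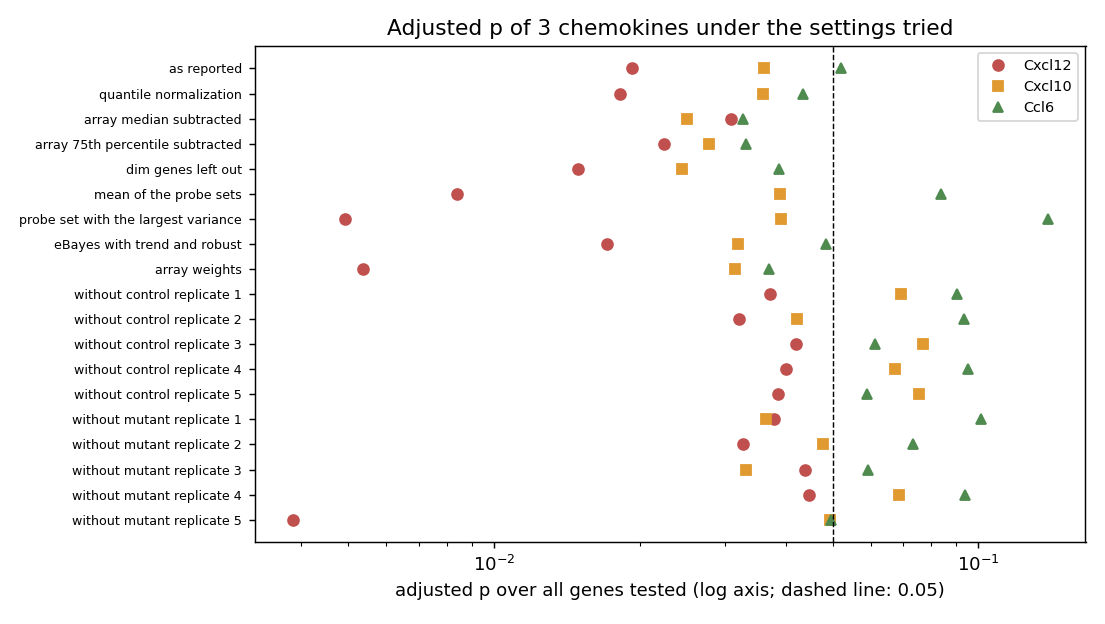
Adjusted p (horizontal log axis, dashed line at 0.05) of Cxcl12, Cxcl10 and Ccl6 as reported and under other settings of processing and arrays. The replicate block and the fit over all probe sets are not shown. With the block the adjusted p was 0.0177 for Cxcl12, 0.0683 for Cxcl10 and 0.142 for Ccl6. Cxcl12 stays left of the line in every setting shown, up to 0.0446, Cxcl10 crosses it in 5 fits over all genes without 1 array, and Ccl6 lies on either side.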

How the data were processed

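The authors deposited 1 table of log2 values for 10 arrays. Array medians lie between 6.41 and 6.68. The log base was read from the values (0.27 to 16.65); how background was corrected and signals were summarised and normalized is not stated in the labels or the table. Per the labels' protocols, 100 ng of total RNA was amplified and labelled with biotin. Of 25995 probe sets, 37 controls were left out, 21613 carried 1 symbol, 638 several and 3707 none. Symbols came from the platform annotation, checked by gene identifier against RefSeq on GRCm38.p6 (0 changed, 61 without a match).

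For each gene the brightest probe set on average stood for it. Groups were compared in R 4.3.3 with the linear model and moderated test of limma 3.58.1 (lmFit, eBayes), which was two-sided and had no block. P-values were adjusted by Benjamini-Hochberg over the 12366 genes; probe sets were tested likewise over all 25958. Every adjusted p comes from this model unless another setting is named beside it. The code was tested on simulated data. Precision is limited by 5 arrays in each group, so p-values reflect how much these livers vary, which may include technical spread. The members and lists were chosen with earlier results of these data known. Named genes were all members, the ligands and receptors called (or the 2 with the smallest p), up to 4 genes of smallest p in each other list, and Dicer1; Cxcl11, Alb, Nfkbia, Kdr, Sdc2, Krt7, Ackr3, Ccr2, Ccr1 and Cxcr3 were added after their values were seen. Promoter windows were available for 7 members; 3 members and protein sequences were not matched.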

Additional observations from a re-analysis of the deposited data

Results flagged for a closer look

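In the controls, Cxcl12 on control replicate 5 lay far below the other 4, at 11.59 against 12.01 to 12.10, and the gap was 0.818 of the range of the group. Of 20 groups of 5 arrays examined for the 10 chemokines this was 1, and chance gives about 1 in 20. On the other Cxcl12 probe set the same array was also the lowest control, at 10.98. Without it the difference was 0.59 (adjusted p = 0.0386).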

How the results depend on the processing

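The count of chemokines called higher, 2, was 3 with quantile normalization, with the array median or 75th percentile subtracted, with dim genes left out, with trend and robust options, with array weights and over all probe sets, and ran from 1 to 3 in the fits without 1 array. The gene added was Ccl6 in the settings over genes, but Cxcl16, on its dimmer probe set, over all probe sets. The count was 1 when control 1, 3, 4 or 5 or mutant 4 was left out. The count called lower was 0 in every setting. With the replicate number as a block, 1 was called (Cxcl10 had an adjusted p = 0.0683 and Cxcl12 0.0177). Same-numbered deviations correlated between -0.183 and 0.0876, which shows no pairing by number. This cannot exclude a shared litter or batch, which the labels do not give. Without 1 array, the sign turned for Cxcl9 (-0.25 to 0.25), Cxcl13 (-0.46 to 0.083) and Ccl9 (-0.042 to 0.14), and for Ccl9 with array weights (-0.029). The cause was not tested. Over all genes, 1066 higher and 1422 lower became 1371 and 2160 without mutant replicate 5, and ran from 627 to 1371 and 764 to 2160 without 1 array. Values of Ccl2 and of several receptors lay near or below 3.60, the 25th percentile of all values.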
